A study of Arabidopsis thaliana with 12 samples.

Results

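The response to sucrose was compared between wild type and *tmt2* seedlings of *Arabidopsis thaliana* by asking, gene by gene, whether the change on sucrose in *tmt2* differed from the change on sucrose in the wild type. All 12 RNA-seq libraries of the study entered 1 model of 4 groups, and the comparison was (*tmt2-L-Suc* minus *tmt2-S*) minus (WT-Suc minus WT) on the log2 scale, called the interaction here. A positive interaction means that the response of *tmt2* was higher than that of the wild type, whether by a larger rise, a smaller fall or a change of sign. A differentially expressed gene (DEG) had a log2 fold change (log2FC) of at least 1.2 in size and an adjusted p of at most 0.05. By this rule 3728 of the 18506 genes tested (20.1%) were interaction DEGs, of which 2212 (12% of the genes tested) were positive and 1516 (8.19%) were negative.

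The 4 groups held 3 libraries each from above-ground tissue. WT was Col-0 on 1/2 MS medium, WT-Suc was Col-0 on the same medium with 1% sucrose, *tmt2-S* was the *tmt2* T-DNA mutant without sucrose, and *tmt2-L-Suc* was the mutant with 1% sucrose. The labels give an age of 7 days for *tmt2-S* and of 5 days for the other 3 groups, and per the study's methods the *tmt2-S* seedlings were those that formed no true leaves while *tmt2-L-Suc* seedlings developed normally. In *tmt2-S*, therefore, the mutation, the age and the chosen phenotype cannot be told apart, and every interaction takes in that group. Only *tmt2-L-Suc* and WT-Suc shared both age and medium. Fewer cells of a type and less RNA per cell also cannot be told apart in whole-tissue RNA.

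Each library held 20187961 to 21370053 counts. *TMT2* gave an FPKM (fragments per kilobase of transcript, scaled to library depth) of 9.36, 7.83 and 7.04 in WT, of 11.4, 7.33 and 8.61 in WT-Suc, of 21.8, 25.4 and 23.2 in the *tmt2-S* libraries and of 24.8, 10.8 and 16.0 in *tmt2-L-Suc*. These reads do not check the mutation, because the insertions lie in the last exon and the sequence before them can still be transcribed. The interaction of *TMT2* was -0.62 ± 0.33 (SE, adjusted p = 0.162). Green shoot markers were high throughout, with a summed FPKM over 7 genes of 3.24e+04 to 3.97e+04 in *tmt2-S* and of 4.65e+04 to 6.28e+04 in the other groups, and 6 root hair and endodermis markers summed to between 2.35 and 11.1 in every group, with *COBL9* and *EXPA7* at 0 in 6 and 5 libraries. WT-Suc replicate 2 stood apart from the other 11 libraries in seed transcripts. Its 12 seed storage protein and oleosin genes summed to an FPKM of 667, against 2.35 and 9.43 in the other WT-Suc libraries, 4.09 to 10.6 in WT, 0.18 to 0.59 in *tmt2-S* and 2.15 to 6.86 in *tmt2-L-Suc*. Without that library 3253 interaction DEGs were called, 1955 positive and 1298 negative. Over all genes, the counts of WT-Suc replicate 1 were farther from replicates 2 and 3 (chi-square per degree of freedom 44.5 and 52.6) than those were from each other (11.3), and the like held for *tmt2-S* replicate 1 (65.8 and 82.7 against 43.4). Interaction DEGs numbered 4009 without the first of these libraries and 4158 without the second.

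TMT2 is a tonoplast transporter that brings hexoses into the vacuole, where plant cells store sugar. When sugar runs short, the SnRK1 kinase and its partner bZIP factors turn on genes that release carbon from amino acids and other reserves, and when sugar is plentiful, growth, cell division and translation are favoured through the TOR kinase. Sugar also acts on the hormone systems of seedlings, among them auxin, gibberellin and jasmonate, and on the uptake of iron and other nutrients.

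The 4 groups gave each genotype its own sucrose effect. In the wild type, sucrose gave 182 DEGs (0.983% of the genes tested), of which 15 (0.0811%) were higher and 167 (0.902%) lower on sucrose. In *tmt2*, it gave 4256 DEGs (23.0%), with 2294 (12.4%) higher and 1962 (10.6%) lower. The median of all genes was near 0 in each, at 0.02 in the wild type, 0.01 in *tmt2* and 0.01 for the interaction. The wild-type count rested on WT-Suc replicate 2, without which it was 0, and it was 6 without WT replicate 1, 20 without WT-Suc replicate 3, 27 without WT replicate 2, 111 without *tmt2-L-Suc* replicate 3, 117 without *tmt2-S* replicate 2, 306 without WT replicate 3 and 707 without WT-Suc replicate 1. The *tmt2* count stayed between 4021 and 4740 whichever single library was left out.

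**Figure D1:**
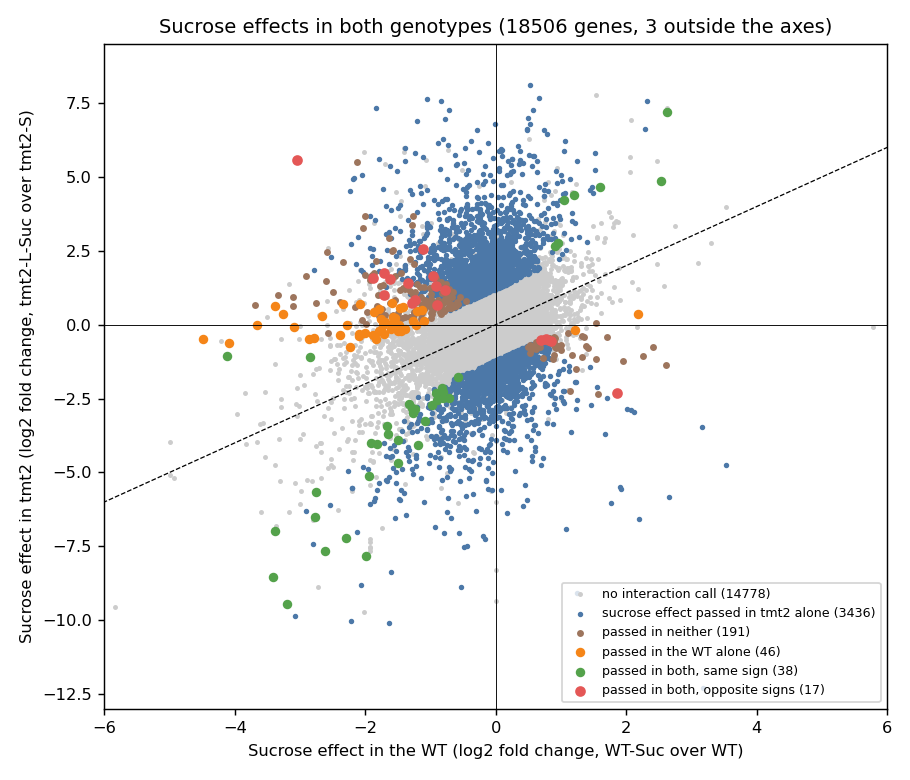
Sucrose effect in the wild type (x axis, log2FC) against that in *tmt2* (y axis, log2FC), 1 point per gene tested, with interaction DEGs coloured by the class of their sucrose effects and a dashed line where both effects are equal; 3 genes, 0 of them interaction DEGs, lie outside the axes. The 3436 genes that passed in *tmt2* alone stretch along the y axis, and the 46 that passed in the wild type alone lie to the left of 0 but for 2.

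Most interaction DEGs passed the test of the sucrose effect in *tmt2* alone. A total of 3436 passed the adjusted p of 0.05 for the sucrose effect in *tmt2* (as did 51.5% of the genes tested) and not for that in the wild type (1.47%), 2006 of them positive and 1430 negative. Another 46 passed in the wild type alone, 17 passed in both with opposite signs, 36 passed in both with the same sign and a larger change in *tmt2*, 2 passed in both with a larger change in the wild type, and 191 passed in neither. These classes describe where single tests passed, and the difference itself is tested by the interaction only. By the signs of the estimates, whatever their p, 1523 interaction DEGs fell on sucrose in the wild type and rose in *tmt2*, and 805 did the reverse.

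The group that stood apart was mostly *tmt2-S*. Of the 2006 positive genes of the *tmt2*-alone class, 1567 had all 3 *tmt2-S* libraries below the other 9, and 582 had all 3 *tmt2-L-Suc* libraries above the other 9. Of the 1430 negative ones, 1056 had *tmt2-S* above the rest and 526 had *tmt2-L-Suc* below the rest. The class was chosen by a difference between these 2 groups, which favours genes with a mutant group at an extreme. Its counts therefore describe the members and test nothing further. Among all genes tested, *tmt2-S* lay below the rest in 18.1% and above in 16.0%, and *tmt2-L-Suc* lay above the rest in 6.98% and below in 6.81%. WT lay above the rest in 1.42% and below in 0.746%, and WT-Suc above in 2.85% and below in 3.99%. The interaction can also be read as the genotype effect with sucrose minus that without. For 2866 of the 3728 genes the larger of these was the one without sucrose, and for 862 it was the one with sucrose, with 422 of the 862 positive and 440 negative. With sucrose, 1333 genes (7.20%) were DEGs between genotypes, 794 (4.29%) higher and 539 (2.91%) lower in *tmt2*, and without sucrose 3657 (19.8%), 1441 (7.79%) higher and 2216 (12%) lower. Without WT-Suc replicate 2, the first of these counts was 830.

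**Figure D2:**
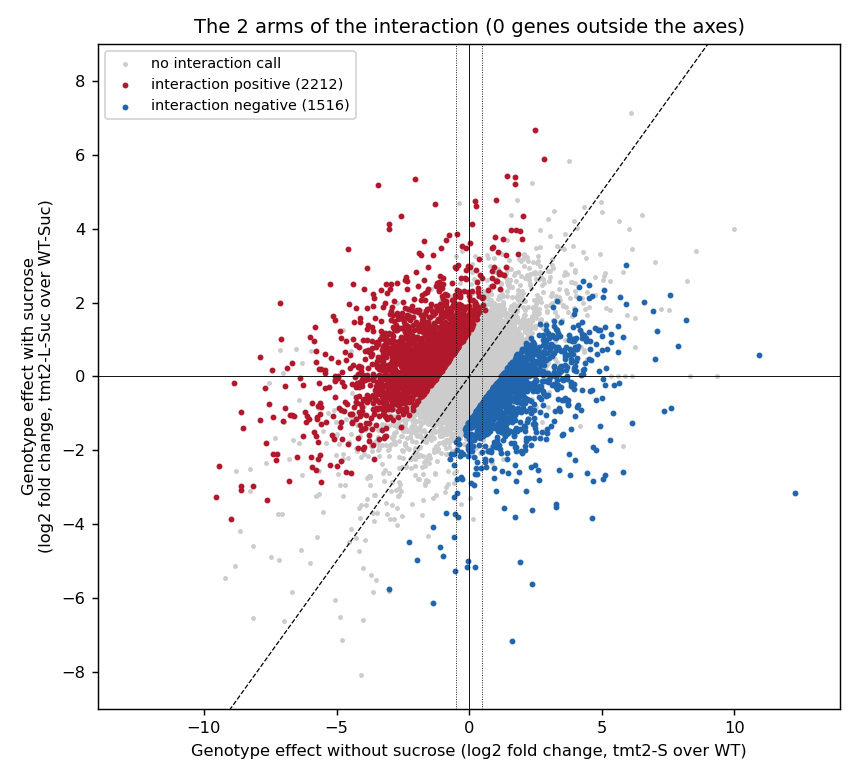
Genotype effect without sucrose (x axis, *tmt2-S* over WT, log2FC) against that with sucrose (y axis, *tmt2-L-Suc* over WT-Suc, log2FC), 1 point per gene tested, with positive and negative interaction DEGs in 2 colours, a dashed line of equal effects and dotted lines at 0.5 on either side of 0. The larger effect is on the x axis for 2866 of the 3728 interaction DEGs and on the y axis for 862.

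Genes known to rise when sugar runs short had negative interactions. Of 16 such genes tested, 12 were interaction DEGs and all 12 were negative, with a median interaction of -2.09 over the 16, against 0.01 over all genes tested. The median sucrose effect of the list was 0.12 in the wild type and -2.15 in *tmt2*. All 3 *tmt2-S* libraries lay above the other 9 in 9 of the 16 genes, and all 3 *tmt2-L-Suc* libraries lay below in 4. Of all genes tested, 8.19% were negative DEGs, *tmt2-S* lay above in 16.0% and *tmt2-L-Suc* below in 6.81%. The count of negative genes was 9 to 14 over the fits that left out a single library.

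*SEN1*, a dark-inducible gene much used as a marker of carbon starvation, had an FPKM of 297, 291 and 732 in WT, 443, 1017 and 603 in WT-Suc, 957, 2146 and 4527 in the *tmt2-S* libraries and 213, 122 and 77.4 in *tmt2-L-Suc*. The *tmt2-L-Suc* libraries were the lowest of all 12, and the lowest *tmt2-S* library lay between the upper 2 WT-Suc libraries. The interaction was -4.89 ± 0.80 (SE, edgeR adjusted p = 0.000806). *ASN1*, the asparagine synthetase that stores nitrogen when carbon is scarce, had an FPKM of 113, 143 and 312 in WT, 243, 277 and 139 in WT-Suc, 244, 631 and 1155 in the *tmt2-S* libraries and 48.2, 47.1 and 14.1 in *tmt2-L-Suc*. Here too *tmt2-L-Suc* was below every other library, WT and WT-Suc overlapped, and the interaction was -4.46 ± 0.83 (adjusted p = 0.00173). In this family the DEGs also included *DIN10*, a raffinose synthase-like gene (-3.21 ± 0.67), the trehalose-phosphate synthase-like *TPS10* (-2.79 ± 0.51) and the monosaccharide importer *STP1* (-3.83 ± 0.81).

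Amino acid breakdown moved the same way. Of 14 catabolic genes tested, 12 were negative interaction DEGs and 0 were positive, with a median of -2.72 for the interaction, 0.01 for sucrose in the wild type and -2.76 for sucrose in *tmt2*. All 3 *tmt2-S* libraries lay above the rest in 12 of the 14, and *tmt2-L-Suc* lay below the rest in 7. The shares over all genes tested were 8.19% for negative DEGs, 16.0% for *tmt2-S* above and 6.81% for *tmt2-L-Suc* below. *BCAT2*, a branched-chain aminotransferase, had an FPKM of 8.63, 5.14 and 15.3 in WT, 6.69, 15.8 and 4.35 in WT-Suc, 109, 162 and 369 in the *tmt2-S* libraries and 2.77, 1.28 and 0.44 in *tmt2-L-Suc*. The 4 groups split into 3 levels, with both wild-type groups overlapping in the middle, and the interaction was -7.08 ± 0.95 (adjusted p = 0.00027).

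*IVD*, the isovaleryl-CoA dehydrogenase that feeds electrons from leucine breakdown to mitochondria, had an FPKM of 19.5, 15.8 and 31.5 in WT, 20.5, 25.9 and 17.6 in WT-Suc, 179, 249 and 305 in the *tmt2-S* libraries and 14.4, 9.26 and 10.7 in *tmt2-L-Suc*. The interaction was -4.37 ± 0.38 (adjusted p = 3.03e-05), and *tmt2-S* and *tmt2-L-Suc* lay on either side of all wild-type libraries. The proline dehydrogenase gene *ProDH1* (-3.97 ± 0.65), the glutamate dehydrogenase gene *GDH2* (-3.89 ± 0.51) and *MCCA*, a subunit of methylcrotonyl-CoA carboxylase in leucine breakdown (-3.97 ± 0.56), were DEGs as well. Among 9 bZIP factors of the C and S1 groups, partners of SnRK1 signalling, 4 were negative DEGs and 0 positive, against 8.19% and 12% of all genes tested. The median interaction of the 9 was -0.76, and 1 member passed the adjusted p with a positive interaction below the fold limit. *bZIP1*, a negative DEG, had an FPKM of 101, 88.1 and 94.8 in WT, 88.4, 86.1 and 66.9 in WT-Suc, 242, 294 and 227 in the *tmt2-S* libraries and 24.2, 43.8 and 13.6 in *tmt2-L-Suc*. Its groups gave the same 3 levels as *BCAT2*, with an interaction of -2.94 ± 0.46 (adjusted p = 0.000642).

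The promoters of *SEN1*, *ASN1* and *BCAT2* are shown because these genes carry the negative pattern. Each is the 250 bases before the annotated transcript start, 5′ to 3′ on the gene's strand, read from the TAIR10.1 genome with the RefSeq annotation. Capitals mark the I-box core GATAAG, which reads CTTATC on the other strand, and the sugar-response element TATCCA, which reads TGGATA on the other strand; both motifs can overlap in the letters TATC.
*SEN1*, chr4:16944628-16944877, plus strand: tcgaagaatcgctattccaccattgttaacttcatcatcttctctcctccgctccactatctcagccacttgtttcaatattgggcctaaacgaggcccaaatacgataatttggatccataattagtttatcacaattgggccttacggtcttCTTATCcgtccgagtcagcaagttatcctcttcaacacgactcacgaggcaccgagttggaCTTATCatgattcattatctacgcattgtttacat
*ASN1*, chr3:17441432-17441681, minus strand: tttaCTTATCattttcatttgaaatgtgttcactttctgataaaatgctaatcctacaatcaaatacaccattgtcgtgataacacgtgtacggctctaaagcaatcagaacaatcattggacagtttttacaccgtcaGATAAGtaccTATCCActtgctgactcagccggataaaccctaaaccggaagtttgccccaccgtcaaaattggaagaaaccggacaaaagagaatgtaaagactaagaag
*BCAT2*, chr1:3287837-3288086, plus strand: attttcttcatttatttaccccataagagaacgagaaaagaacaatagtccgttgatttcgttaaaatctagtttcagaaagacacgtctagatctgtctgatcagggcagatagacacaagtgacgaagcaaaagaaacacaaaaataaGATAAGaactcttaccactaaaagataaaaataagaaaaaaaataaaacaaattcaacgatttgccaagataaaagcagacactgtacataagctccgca
On either strand, GATAAG was present in the same window of 12.6% of the 18494 genes with a promoter sequence, in 17.8% of the negative DEGs and in 11.8% of the positive ones. It was present in 7 of the 16 sugar-starvation genes (43.8%) and in 28.6% of the amino acid catabolism genes. TATCCA was in 14.4% of all, 18.1% of the negative and 14.1% of the positive set. A match is a description of the letters, not a site or a cause.

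Genes of the iron-deficiency response had positive interactions, in a list assembled after its first members had been seen among the largest interactions. In Arabidopsis, the Ib group of bHLH factors and the small IMA peptides signal iron shortage, and ferritins store iron when it is plentiful. Of 18 iron-deficiency genes tested, 14 were positive interaction DEGs and 0 negative, and the median interaction was 4.84. The median sucrose effect was -1.35 in the wild type and 2.89 in *tmt2*, and in 10 of the 14 the larger genotype difference was the one with sucrose, the comparison in which age and medium were shared. Against WT-Suc, 12 of the 18 were higher in *tmt2-L-Suc*, with a median of 1.97. Of all genes tested, 12% were positive interaction DEGs and 4.29% were higher in that comparison. Without sucrose, the median genotype effect of the 18 (*tmt2-S* over WT) was -2.20, so both arms entered the interaction of the list. All 3 *tmt2-S* libraries lay below the other 9 in 5 of the 18 genes, against 18.1% of all genes tested. All 3 *tmt2-L-Suc* libraries lay above the other 9 in 6, against 6.98%. The count of 14 was 13 or 14 over the fits without a single library.

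*IMA3*, which encodes one of the IMA peptides, had an FPKM of 51.7, 28.1 and 14.4 in WT, 8.38, 5.72 and 7.28 in WT-Suc, 5.80, 3.60 and 0.81 in the *tmt2-S* libraries and 89.7, 99.99 and 110 in *tmt2-L-Suc*. The *tmt2-L-Suc* libraries were above all others and WT-Suc was below WT without overlap, and the interaction was 7.14 ± 0.84 (adjusted p = 0.000136). *bHLH39*, an Ib bHLH factor, had an FPKM of 2.07, 0.52 and 0.99 in WT, 0.83, 0.05 and 0.21 in WT-Suc, 0.16, 0.69 and 0.05 in the *tmt2-S* libraries and 11.6, 20.8 and 12.8 in *tmt2-L-Suc*. Only the last group stood apart, and the interaction was 7.40 ± 1.05 (adjusted p = 0.000377). The related factors *bHLH38* (5.95 ± 1.02), *bHLH100* (5.10 ± 1.00) and *bHLH101* (6.78 ± 1.09) and the peptide genes *IMA1* (6.92 ± 0.69) and *IMA2* (6.98 ± 0.80) were DEGs in the same direction.

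*PYE*, a bHLH regulator of iron distribution, had an FPKM of 29.8, 18.3 and 12.4 in WT, 11.5, 8.50 and 8.49 in WT-Suc, 12.2, 14.5 and 15.1 in the *tmt2-S* libraries and 41.1, 40.4 and 33.5 in *tmt2-L-Suc*. The interaction was 2.59 ± 0.40 (adjusted p = 0.000612), and *tmt2-L-Suc* lay above all other libraries. *OPT3*, a phloem transporter with a part in iron signalling from shoot to root, had an FPKM of 75.2, 49.4 and 38.7 in WT, 37.0, 23.8 and 22.0 in WT-Suc, 48.5, 52.1 and 24.6 in the *tmt2-S* libraries and 84.0, 101 and 107 in *tmt2-L-Suc*. It had an interaction of 2.25 ± 0.44 (adjusted p = 0.00223), and WT and *tmt2-S* overlapped. The nicotianamine synthase gene *NAS4* (5.53 ± 0.81) and the vacuolar transporter gene *ZIF1* (1.81 ± 0.30) were DEGs too. *FIT* and *IRT1*, the regulator and the transporter of iron uptake in roots, and *FRO3* and *BTSL2* did not pass.

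Genes of iron storage and use ran the other way. Of 7 tested, 5 were negative interaction DEGs and 0 positive, with a median of -1.95, in the full fit and in every fit without a single library. *FER1*, the ferritin gene induced by iron, had an FPKM of 57.3, 112 and 182 in WT, 184, 354 and 269 in WT-Suc, 485, 552 and 735 in the *tmt2-S* libraries and 53.7, 52.5 and 45.2 in *tmt2-L-Suc*. The *tmt2-S* libraries were the highest and the *tmt2-L-Suc* libraries the lowest of the 12, with WT-Suc above WT, and the interaction was -4.78 ± 0.51 (adjusted p = 8.4e-05). *FER4*, a second ferritin gene (-1.74 ± 0.26), the chloroplast and mitochondrial iron-sulphur protein gene *NEET* (-2.19 ± 0.27) and the metal-nicotianamine transporter gene *YSL1* (-1.95 ± 0.26) were negative DEGs as well. Of 17 genes of mitochondrial and oxidative stress, 3 were positive and 6 negative, with a median of 0.04. Of all genes tested, 12% were positive and 8.19% negative. The catalase gene *CAT2* (-2.25 ± 0.33) and the superoxide dismutase gene *CSD1* (-2.24 ± 0.30) were among the negative DEGs, and *DIC1*, a mitochondrial dicarboxylate carrier (2.05 ± 0.48), and *UPOX* (1.79 ± 0.44) among the positive ones.

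**Figure D3:**
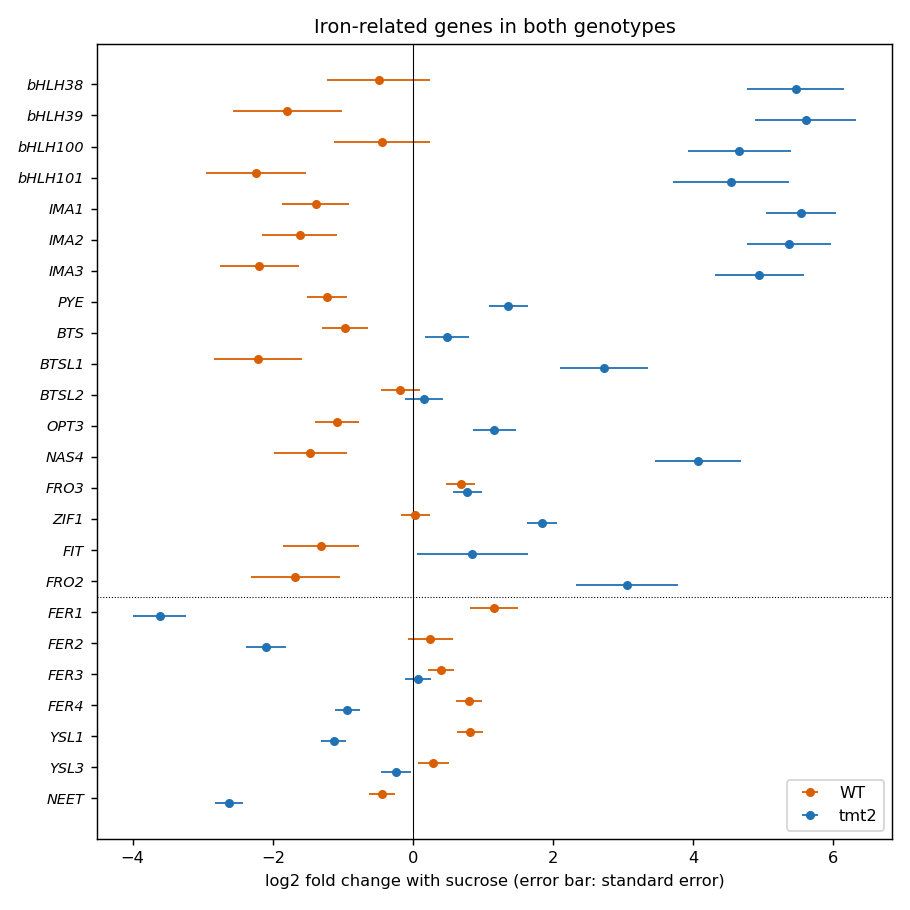
Sucrose effect (x axis, log2FC, error bars SE) in the wild type and in *tmt2* for 24 iron-related genes, with 17 iron-deficiency genes above the dotted line and 7 storage and sufficiency genes below it; *IRT1* is not drawn because its error was too large. *tmt2* lies to the right of the wild type in the deficiency genes that were called and to the left in *FER1* (interaction -4.78).

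The promoters of *bHLH38* and *bHLH100* are shown as examples of the positive group, with the G-box CACGTG, a core bound by many bHLH and bZIP factors and its own reverse complement, in capitals. They are the 250 bases before the transcript start in the same genome.
*bHLH38*, chr3:21085246-21085495, minus strand: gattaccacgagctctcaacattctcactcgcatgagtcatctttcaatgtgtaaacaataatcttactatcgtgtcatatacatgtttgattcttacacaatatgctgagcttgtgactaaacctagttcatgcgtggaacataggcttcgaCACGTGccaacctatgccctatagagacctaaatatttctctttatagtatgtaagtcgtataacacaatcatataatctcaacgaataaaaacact
*bHLH100*, chr2:17199455-17199704, minus strand: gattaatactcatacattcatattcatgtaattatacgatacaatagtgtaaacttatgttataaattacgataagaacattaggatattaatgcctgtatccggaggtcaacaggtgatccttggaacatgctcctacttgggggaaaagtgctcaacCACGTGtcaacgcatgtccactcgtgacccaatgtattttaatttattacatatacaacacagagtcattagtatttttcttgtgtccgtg
The G-box was in this window of 4 of the 18 iron-deficiency genes (22.2%), of 7.55% of all genes, of 8.01% of the positive DEGs and of 7.39% of the negative DEGs.

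In jasmonate and wounding genes the sucrose effect of the wild type was, at the median, larger in size than that of *tmt2*. Of 21 tested, 14 were positive interaction DEGs and 0 negative, with a median of 3.03, and the median sucrose effect was -1.21 in the wild type and 0.66 in *tmt2*. On sucrose, 6 genes fell as DEGs in the wild type, against 0.902% of all genes tested. All 3 WT-Suc libraries lay below the other 9 in 9 of the 21 genes, against 3.99% of all genes tested. *tmt2-S* lay below the rest in 6, against 18.1%. Positive interaction DEGs made up 12% of all genes tested. The positive count was 12 to 15 without a single library.

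*LOX4*, a lipoxygenase of the first step of jasmonate synthesis, had an FPKM of 7.12, 10.2 and 2.13 in WT, 0.39, 0.12 and 0.71 in WT-Suc, 21.2, 27.9 and 18.9 in the *tmt2-S* libraries and 19.4, 10.02 and 17.8 in *tmt2-L-Suc*. WT-Suc was below all other libraries, and the interaction was 3.48 ± 0.75 (adjusted p = 0.00406). *JAZ5*, a jasmonate-responsive repressor of the pathway, had an FPKM of 3.93, 7.14 and 2.01 in WT, 0.70, 0.37 and 0.20 in WT-Suc, 6.90, 5.32 and 2.13 in the *tmt2-S* libraries and 12.4, 3.90 and 7.72 in *tmt2-L-Suc*. Its 3 other groups overlapped, and the interaction was 4.03 ± 0.83 (adjusted p = 0.00301). *MYC2*, the master bHLH factor of jasmonate responses, was at an FPKM of 28.1, 21.4 and 19.8 in WT, 12.9, 4.79 and 7.14 in WT-Suc, 31.3, 24.8 and 23.1 in the *tmt2-S* libraries and 29.3, 24.6 and 30.3 in *tmt2-L-Suc*. Again WT-Suc alone lay below, with an interaction of 1.60 ± 0.39 (adjusted p = 0.00727).

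Other members differed from this shape. *AOS*, *AOC2* and *LOX2*, enzymes of jasmonate synthesis in the chloroplast, and the storage protein gene *VSP2* were positive DEGs with interactions of 2.80 ± 0.50, 3.39 ± 0.77, 3.48 ± 0.81 and 3.14 ± 0.41. In these 4 the lowest libraries were those of *tmt2-S*, with an FPKM for *AOC2* of 6.61, 2.62 and 1.07 against 11.8 to 37.2 in the other 9. Without replicate 2 of every group, *AOS* (adjusted p = 0.0573), *AOC2* (0.126) and *LOX2* (0.132) were not called. *JAZ7* and the jasmonate-inactivating *CYP94B3* were lower on sucrose in both genotypes, and their interactions were 1.06 ± 0.60 (adjusted p = 0.186) and 0.39 ± 0.76 (adjusted p = 0.72). *ST2A*, a sulphotransferase gene outside the list, ran opposite to it. Its FPKM was 4.66, 12.5 and 7.23 in WT-Suc against 0.12 to 3.09 in the other 9 libraries. The interaction was -4.95 ± 1.05 (adjusted p = 0.00347).

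Of the 46 genes of the wild-type-alone class, 44 were positive, and in 38 of the 44 all WT-Suc libraries lay below the other 9. That held for 3.99% of all genes tested, but the choice of the class on the same libraries favours such genes, so the count is a description only. Their sucrose effect ran from -4.48 to -1.10 in the wild type, with a median of -1.77, and from -0.75 to 0.74 in *tmt2*, with a median of -0.01. The class included stress factors that rise quickly on touch and wounding. *RRTF1*, an ERF factor, had an FPKM of 33.2, 25.2 and 22.3 in WT, 5.83, 1.78 and 2.60 in WT-Suc, 27.8, 34.1 and 14.6 in the *tmt2-S* libraries and 32.6, 21.5 and 21.9 in *tmt2-L-Suc*. WT-Suc was below all other libraries, the other 3 groups overlapped, and the interaction was 3.01 ± 0.52 (adjusted p = 0.00107). *MYB15* had an FPKM of 5.19, 4.15 and 2.39 in WT, 0.55, 0.17 and 0.25 in WT-Suc, 19.6, 13.6 and 7.68 in the *tmt2-S* libraries and 20.8, 6.81 and 16.0 in *tmt2-L-Suc*. WT-Suc was the lowest and WT lay between it and both mutant groups, with an interaction of 3.67 ± 0.72 (adjusted p = 0.00227). Without WT-Suc replicate 2 no gene passed the DEG rule for sucrose in the wild type, while *JAZ5*, *LOX4*, *MYC2*, *RRTF1* and *MYB15* each stayed interaction DEGs without any 1 of the 12 libraries. *MYC2* was not called when replicate 2 (adjusted p = 0.0806) or replicate 3 (0.0709) of every group was left out.

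**Figure D4:**
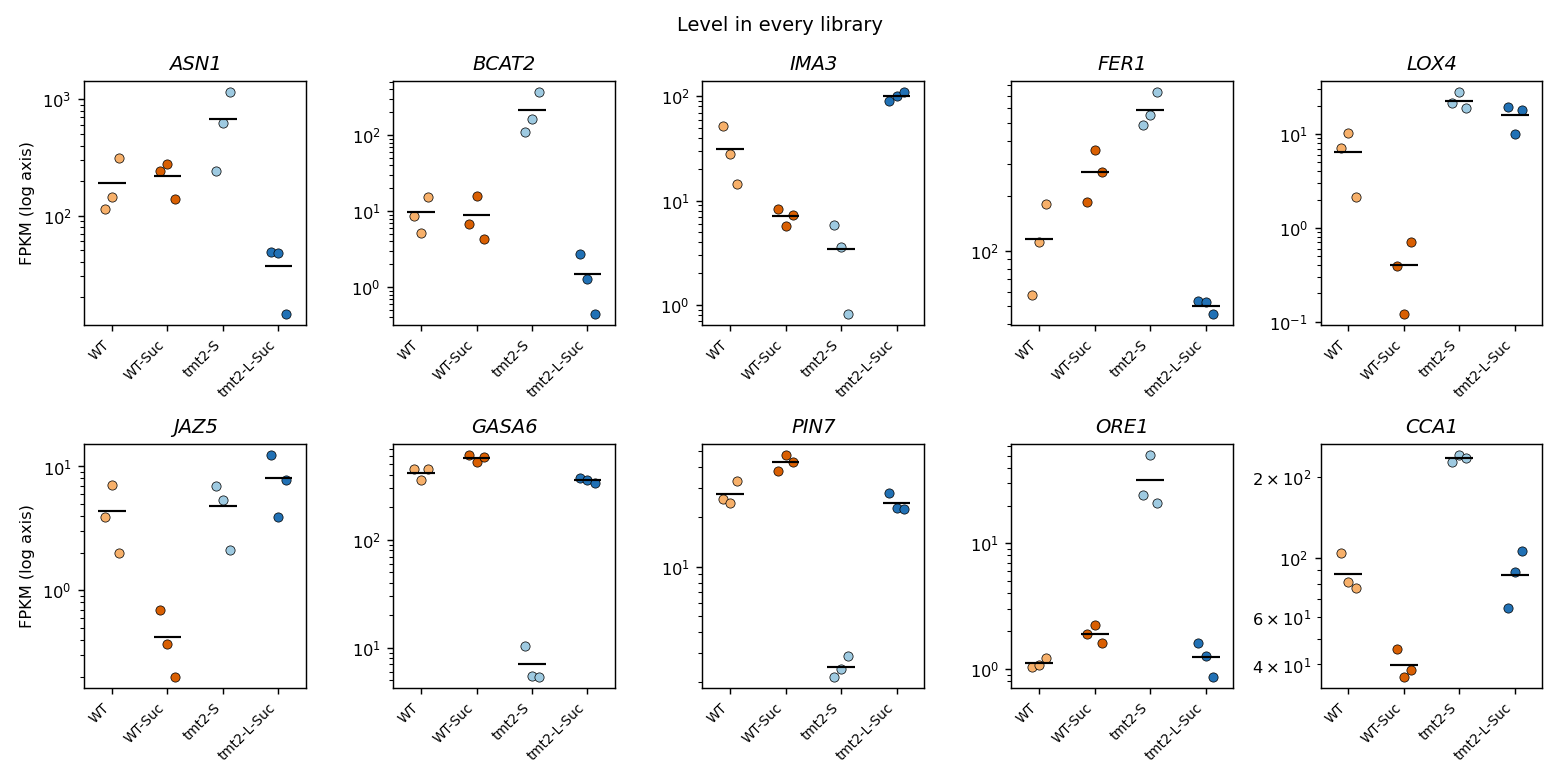
FPKM (log axis) of 10 genes in each of the 12 libraries, by group; points are single libraries and bars the group means. *tmt2-S* and *tmt2-L-Suc* lie on either side of the wild type in *BCAT2* (109 to 369 and 0.44 to 2.77), and WT-Suc is the lowest group in *LOX4* (0.12 to 0.71).

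The growth lists stand against 12% positive and 8.19% negative interaction DEGs over all genes tested. Of 15 *SAUR* genes tested, which are induced early by auxin and promote cell expansion, 12 were positive interaction DEGs and 1 negative, with a median of 3.60. These counts were the same without any 1 library. *tmt2-S* lay below all other libraries in 12 of the 15, against 18.1% of all genes tested. *SAUR26* was at an FPKM of 0 in all *tmt2-S* libraries, and at 2.15, 3.41 and 2.96 in *tmt2-L-Suc*, at least 8.89-fold higher by counts set against a floor of 3 counts. It reached 6.22, 7.80 and 13.9 in WT and 11.0, 19.2 and 15.4 in WT-Suc. The negative DEG of the list was *SAUR36*, a senescence-associated *SAUR*, described with the opposite class. The list held 16 genes picked by their annotation and need not hold the whole family. The study reports *SAUR36* and some other *SAUR* genes as higher in *tmt2-S* and back at the wild-type level with sucrose.

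The gibberellin-regulated *GASA6*, which promotes elongation, had an FPKM of 449, 357 and 453 in WT, 612, 520 and 589 in WT-Suc, 10.5, 5.51 and 5.36 in the *tmt2-S* libraries and 376, 355 and 336 in *tmt2-L-Suc*. Only *tmt2-S* stood far from the rest, and the interaction was 5.21 ± 0.33 (adjusted p = 8.64e-06). *GASA4* was positive too (2.54 ± 0.33), whereas *GASA1* was negative. *GASA1* had an FPKM of 189, 218 and 333 in WT, 211, 205 and 115 in WT-Suc, 1431, 3032 and 4898 in the *tmt2-S* libraries and 295, 266 and 224 in *tmt2-L-Suc*, and its interaction was -3.07 ± 0.52 (adjusted p = 0.00101). Over 16 gibberellin and brassinosteroid genes, 6 were positive and 2 negative, against 12% and 8.19% of all genes tested. Among the positive ones was *PRE1*, a small growth-promoting bHLH-like protein (4.07 ± 0.42).

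*PIN7*, an auxin efflux carrier, had an FPKM of 25.6, 24.1 and 33.1 in WT, 38.2, 47.5 and 43.2 in WT-Suc, 2.15, 2.41 and 2.87 in the *tmt2-S* libraries and 27.8, 22.8 and 22.5 in *tmt2-L-Suc*. The interaction was 2.65 ± 0.24 (adjusted p = 3.12e-05), with *tmt2-S* below all other groups. *TAA1*, which makes the auxin precursor indole-3-pyruvate, had an FPKM of 6.25, 8.39 and 9.06 in WT, 8.26, 4.26 and 4.69 in WT-Suc, 2.39, 2.72 and 1.90 in the *tmt2-S* libraries and 17.7, 12.2 and 16.6 in *tmt2-L-Suc*. It went beyond the wild type on sucrose, with *tmt2-L-Suc* above all 9 other libraries and an interaction of 3.20 ± 0.32 (adjusted p = 6.3e-05). Of 16 genes of auxin transport and synthesis, 6 were positive and 1 negative, and of 20 *Aux/IAA* genes, 8 were positive and 1 negative. The shares over all genes tested were 12% and 8.19%.

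Cell wall genes were mixed. Of 20 expansins, which loosen the wall, 9 were positive and 1 negative, against 12% and 8.19% of all genes tested. Of 22 *XTH* genes, which remodel xyloglucan, 5 were positive and 4 negative. *EXPA8* had an FPKM of 87.7, 69.8 and 109 in WT, 70.6, 54.7 and 59.3 in WT-Suc, 2.25, 0.90 and 0.41 in the *tmt2-S* libraries and 36.9, 73.0 and 46.3 in *tmt2-L-Suc*, with an interaction of 6.02 ± 0.58 (adjusted p = 4.46e-05). The *tmt2-L-Suc* and WT-Suc ranges overlapped. *XTH19* was instead highest in *tmt2-L-Suc*, at 34.2, 22.1 and 39.9 against 1.08 to 6.25 in the other 9 libraries (3.43 ± 0.61, adjusted p = 0.00125).

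Of 26 cell cycle genes, 13 were positive DEGs and 0 negative, with a median of 1.25 and all *tmt2-S* libraries below the rest in 15. Of 40 histone genes, 17 were positive and 1 negative, with a median of 1.03, and *tmt2-S* lay below the rest in 12 and *tmt2-L-Suc* above in 6. Of all genes tested, 12% were positive and 8.19% negative, *tmt2-S* lay below in 18.1% and *tmt2-L-Suc* above in 6.98%. The mitotic cyclin *CYCB1;2* had an FPKM of 5.61, 6.99 and 7.17 in WT, 7.59, 5.64 and 5.39 in WT-Suc, 2.01, 2.68 and 1.43 in the *tmt2-S* libraries and 9.02, 8.20 and 7.72 in *tmt2-L-Suc*, with an interaction of 2.12 ± 0.28 (adjusted p = 0.00024). The *tmt2-L-Suc* libraries were thus above all others. Positive cell cycle DEGs numbered 10 to 16 without a single library. The 16 genes of the shoot apex gave 1 positive and 0 negative DEGs, and *tmt2-S* lay below the rest in 5 of them (31.2%).

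Plastid and secondary metabolism followed. Of 36 light-harvesting and photosystem genes, 12 were positive and 0 negative, against 12% and 8.19% of all genes tested. Their median was 0.91, and *tmt2-S* lay below the rest in 24, against 18.1% of all genes tested. *PSAO*, a subunit of photosystem I, had an FPKM of 2433, 2057 and 2414 in *tmt2-S* against 5030 to 6122 in the other 9 libraries (1.48 ± 0.20, adjusted p = 0.000257). The light-harvesting gene *LHCB3* behaved alike, at 1.34 ± 0.24. Calvin cycle genes, by comparison, gave 1 positive and 0 negative DEGs of 18.

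Of 18 aliphatic glucosinolate genes, 9 were positive DEGs and 0 negative, against 12% and 8.19% of all genes tested. The median sucrose effect was -0.24 in the wild type and 2.74 in *tmt2*. Glucosinolates are sulphur-rich defences of the cabbage family. *MYB28*, the factor that controls the pathway, had an FPKM of 24.5, 17.9 and 16.7 in WT, 22.6, 14.02 and 15.4 in WT-Suc, 4.67, 1.34 and 0.50 in the *tmt2-S* libraries and 13.01, 17.0 and 13.6 in *tmt2-L-Suc* (2.96 ± 0.70, adjusted p = 0.00653). Both mutant ranges were apart from each other, while *tmt2-L-Suc* overlapped WT-Suc. *MYB28* was not called without replicate 2 of every group (adjusted p = 0.132). Of 9 indolic glucosinolate genes, 6 were positive and 1 negative. Anthocyanin genes gave 5 positive and 1 negative DEGs of 16, but the positive count depended on single libraries, with 12 without *tmt2-S* replicate 1 and 3 without WT replicate 1, WT-Suc replicate 2 or *tmt2-L-Suc* replicate 3.

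Of 12 genes of the hypoxia response, 6 were positive and 1 negative, with a median of 1.77. All *tmt2-S* libraries lay below the rest in 6 of the 12, and all *tmt2-L-Suc* libraries lay above the rest in 5. Of all genes tested, 12% were positive and 8.19% negative, *tmt2-S* lay below in 18.1% and *tmt2-L-Suc* above in 6.98%. *HB1*, the non-symbiotic haemoglobin that removes nitric oxide at low oxygen, had an FPKM of 1.16, 1.29 and 2.06 in WT, 3.01, 1.86 and 1.92 in WT-Suc, 0.27, 0.70 and 0.27 in the *tmt2-S* libraries and 34.6, 6.02 and 31.1 in *tmt2-L-Suc* (5.23 ± 0.86, adjusted p = 0.000799). All 3 *tmt2-L-Suc* libraries were above the rest, though replicate 2 was much lower than the other 2. The plant cysteine oxidases *PCO1* and *PCO2*, oxygen sensors that are themselves hypoxia-induced, had interactions of 4.17 ± 0.58 and 2.58 ± 0.44. Phosphate starvation genes gave 5 positive and 0 negative DEGs of 13, among them the phosphate sensor gene *SPX1* (2.15 ± 0.41).

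**Figure D5:**
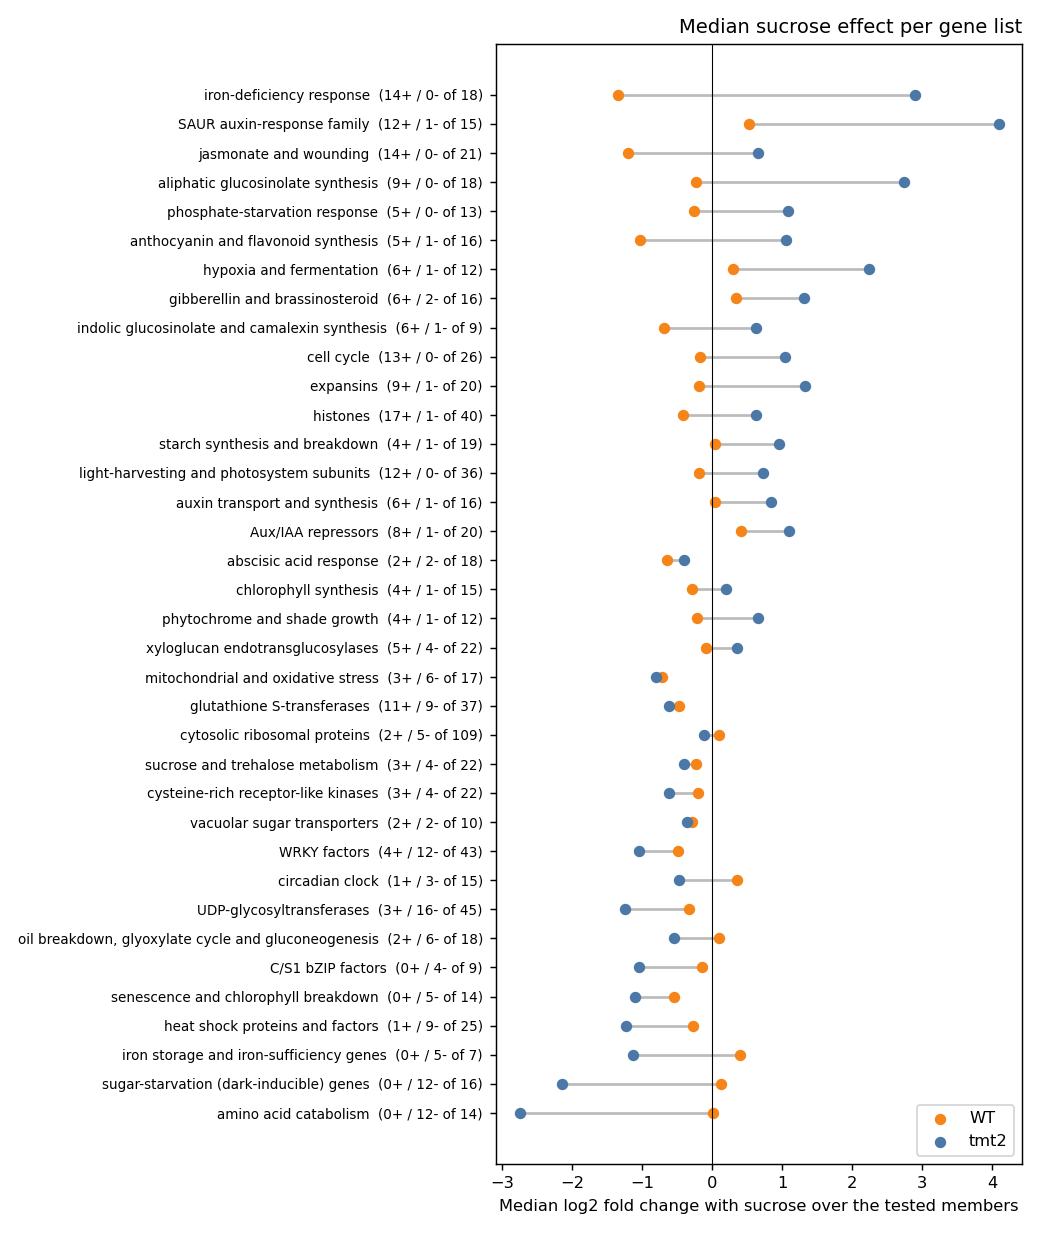
Median sucrose effect (x axis, log2FC) over the tested members of each function list with 4 or more interaction DEGs, in the wild type and in *tmt2*, joined by a line; each label gives the positive and negative interaction DEGs of the genes tested. The iron-deficiency list runs from -1.35 in the wild type to 2.89 in *tmt2*, and the amino acid catabolism list from 0.01 to -2.76.

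Of 43 *WRKY* factors, 12 were negative and 4 positive, and of 45 UDP-glycosyltransferases 16 were negative and 3 positive. Of 25 heat shock proteins 9 were negative and 1 positive, and of 14 senescence genes 5 were negative and 0 positive. The shares over all genes tested were 8.19% negative and 12% positive. *ORE1*, a NAC factor that drives leaf senescence, had an FPKM of 1.03, 1.08 and 1.23 in WT, 1.88, 2.23 and 1.60 in WT-Suc, 24.2, 50.7 and 20.9 in the *tmt2-S* libraries and 1.60, 1.26 and 0.86 in *tmt2-L-Suc* (-5.44 ± 0.49, adjusted p = 3.16e-05). The *tmt2-S* libraries alone were high, and *tmt2-L-Suc* overlapped WT. The senescence factor gene *NAP* was negative too (-2.75 ± 0.49), as was *WRKY6*, at an FPKM of 52.7 to 84.6 in *tmt2-S* and 2.61 to 6.87 in the other 9 libraries (-3.12 ± 0.31).

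*MIOX4*, a myo-inositol oxygenase of sugar-acid metabolism, was at an FPKM of 26.7, 53.4 and 65.7 in *tmt2-S* and at 0.05, 0.08 and 0 in *tmt2-L-Suc*, at least 383-fold lower by counts. It was at 0.64, 2.20 and 2.57 in WT and at 0.70, 0.89 and 0.42 in WT-Suc. The other genes with the largest fitted negative interactions were likewise near 0 in *tmt2-L-Suc*. *AIG1*, a GTPase-like gene first found in the response to an avirulent bacterium, was at 35.6, 57.8 and 18.2 in the *tmt2-S* libraries and at no more than 0.08 in the other 9, at least 299-fold lower in *tmt2-L-Suc*. *AT3G22235*, a cysteine-rich stress tolerance protein gene, was at least 116-fold lower, and *AT5G25260*, a gene of a membrane-associated protein family, at least 206-fold lower. *AIG1* and *AT5G25260* had no more than 2 counts in any WT or WT-Suc library, so their sucrose response in the wild type could not be measured. *AIG1* lost its call without WT-Suc replicate 3 and *AT5G25260* without WT-Suc replicate 2.

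Among DEGs with a mean FPKM of at least 5 in a group, the smallest p-values on the negative side were those of *AT1G21680* (-3.47 ± 0.23), the cytochrome P450 gene *CYP72A13* (-2.99 ± 0.21), the pyruvate kinase family gene *AT3G49160* (-3.69 ± 0.26) and *AT4G32870* (-4.09 ± 0.31). In all 4 the *tmt2-S* libraries were above all others, with an FPKM for *CYP72A13* of 313, 329 and 323 against 50.7 to 102 in the other 9. On the positive side, beside *GASA6*, were the oxygenase gene *AT3G46490* (4.89 ± 0.28), the papain-like protease gene *AT4G11320* (6.11 ± 0.47) and *AT5G57700* (2.82 ± 0.23). In these *tmt2-S* was below all others, with an FPKM for *AT3G46490* of 0.29, 0.33 and 0.20 against 8.83 to 16.8.

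Among other families, glutathione transferases went both ways, with 11 positive and 9 negative of 37, against 12% and 8.19% of all genes tested. Vacuolar sugar transporters, which include TMT2 and come from several families, gave 2 positive and 2 negative DEGs of 10. The negative ones were *SWEET2* (-1.74) and *ERDL6* (-1.40), and the positive ones *TMT3* (4.23) and *SWEET17* (2.24). *TMT3* had no more than 1 count in each *tmt2-S* library and was at least 4.78-fold higher in *tmt2-L-Suc*.

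In 36 interaction DEGs sucrose moved both genotypes the same way but *tmt2* further, with 29 negative and 7 positive. In 28 of the 29, *tmt2-S* was above all other libraries, against 16.0% of all genes tested. The choice of the class on the same libraries favours such genes, so this count too is a description only. *WRKY45*, a factor that regulates phosphate uptake, had an FPKM of 2.15, 0.99 and 1.63 in WT, 0.49, 0.27 and 0.50 in WT-Suc, 87.9, 75.8 and 86.5 in the *tmt2-S* libraries and 0.39, 0.26 and 0.48 in *tmt2-L-Suc*. Both sucrose groups lay in overlapping low ranges and *tmt2-S* alone was high, and the interaction was -5.86 ± 0.49 (adjusted p = 2.84e-05). On the positive side, *XTH8* had an FPKM of 16.4, 25.2 and 27.9 in WT, 35.8, 61.6 and 51.9 in WT-Suc, 2.24, 2.43 and 1.72 in the *tmt2-S* libraries and 43.1, 41.7 and 38.3 in *tmt2-L-Suc* (3.16 ± 0.34, adjusted p = 9.68e-05). Here again the 2 sucrose groups overlapped. The other large cases were *AT3G10815*, a RING-type gene at least 101-fold lower in *tmt2-L-Suc* than in *tmt2-S*, which lost its call without WT-Suc replicate 1, and the desaturase gene *SAD6*, at 34.6, 8.50 and 27.9 in *tmt2-L-Suc* against 0.08 to 2.60 in the other 9 libraries (4.57 ± 0.95, adjusted p = 0.0032).

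In 17 interaction DEGs the sucrose effect passed in both genotypes with opposite signs, 13 with a fall in the wild type and a rise in *tmt2*, and 4 the reverse. This count was 0 without WT-Suc replicate 2 or WT replicate 1, 1 without WT replicate 2 or WT-Suc replicate 3, 6 without *tmt2-S* replicate 2, 7 to 10 without a *tmt2-L-Suc* library, 48 without WT replicate 3 and 249 without WT-Suc replicate 1. *AT2G14247*, a gene without a name in the annotation used, had an FPKM of 15.4, 5.75 and 4.91 in WT, 2.26, 0.48 and 0.66 in WT-Suc, 1.86, 0.49 and 0.17 in the *tmt2-S* libraries and 40.1, 50.2 and 34.8 in *tmt2-L-Suc*. The interaction was 8.62 ± 0.95 (adjusted p = 0.000107), and the order of the groups was that of *IMA3*. *HSFC1*, a heat shock factor, had an FPKM of 18.3, 16.8 and 15.1 in WT, 5.97, 3.57 and 4.93 in WT-Suc, 5.73, 5.39 and 3.76 in the *tmt2-S* libraries and 10.7, 14.2 and 21.4 in *tmt2-L-Suc*. WT and *tmt2-L-Suc* were high and the other pair of groups low, without overlap, and the interaction was 3.45 ± 0.37.

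Among the reverse cases was *SAUR36*, with an FPKM of 1.73, 1.94 and 3.15 in WT, 4.43, 10.6 and 10.5 in WT-Suc, 23.1, 17.8 and 24.4 in the *tmt2-S* libraries and 6.66, 4.71 and 2.39 in *tmt2-L-Suc* (-4.17 ± 0.56). The splicing factor gene *RS40* had an FPKM of 26.4, 28.5 and 35.5 in WT, 46.1, 54.1 and 50.9 in WT-Suc, 32.7, 29.9 and 35.3 in the *tmt2-S* libraries and 27.1, 17.5 and 24.5 in *tmt2-L-Suc*. WT-Suc was above all others and the interaction was -1.22 ± 0.22 (adjusted p = 0.0013), just past the fold limit. *RS31a*, of the same family of arginine- and serine-rich splicing factors, was at -1.25 ± 0.24, and *ERS1*, an ethylene receptor gene, was at -1.41 ± 0.27.

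A stricter view of the pair that shared age and medium took genes whose genotype effect without sucrose was under 0.5 in size and whose genotype effect with sucrose passed the adjusted p. Of the interaction DEGs, 316 met this, 149 positive and 167 negative. In the positive ones *tmt2-L-Suc* lay above the other 9 libraries in 88 and WT-Suc lay below them in 47, with median sucrose effects of -0.66 in the wild type and 1.02 in *tmt2*. In the negative ones *tmt2-L-Suc* lay below the rest in 130 and WT-Suc above in 9, with medians of 0.31 and -1.19. Because both conditions use the same groups as the interaction, these counts describe the members and test nothing further. The largest positive ones were *BBX31* (4.54 ± 1.54), *JAZ5*, *RAS1* (3.80 ± 0.71) and *AT2G17660* (3.60 ± 0.81), and the largest negative ones *RTFL21* (-5.07 ± 1.22), *ST2A*, *IAA34* (-3.37 ± 1.17) and *AT2G33830* (-3.12 ± 0.97). *BBX31* stayed a DEG in 5, *IAA34* in 4 and *AT2G33830* in 9 of the 12 fits without a single library, and the other 5 in all 12. Of those 5, *RTFL21* was not called without replicate 2 (adjusted p = 0.107) or replicate 3 (0.0858) of every group. *ST2A* was not called without replicate 2 (0.0725), nor was *AT2G17660* without replicate 1 (0.0668) or replicate 2 (0.0731). *RTFL21* was near the floor, with no more than 3 counts in each *tmt2-L-Suc* library and a mean of 10.3 in *tmt2-S*. Its fall on sucrose in *tmt2* is thus bounded only at 3.44-fold or more.

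Some sucrose responses were shared. Both sucrose effects passed the adjusted p in 181 genes, and 164 of them moved one way, 137 lower and 27 higher on sucrose. For 118 of the 164 the interaction had an adjusted p above 0.05, which does not show that the responses were equal. Of 15 clock genes, 1 was a positive and 3 were negative interaction DEGs, against 12% and 8.19% of all genes tested. *CCA1* and *LHY*, morning factors of the clock, fell on sucrose in both genotypes and did not pass the interaction test. *CCA1* had an FPKM of 104, 81.1 and 77.2 in WT, 45.7, 35.9 and 38.0 in WT-Suc, 229, 243 and 236 in the *tmt2-S* libraries and 64.8, 88.9 and 106 in *tmt2-L-Suc*. Each sucrose group lay below the group without sucrose of its genotype, and the interaction was -0.31 ± 0.29 (adjusted p = 0.435). For *LHY* it was 0.06 ± 0.29 (adjusted p = 0.899) and for *RVE8* 0.03 ± 0.30 (adjusted p = 0.953). The related *RVE1* did pass, at -1.76 ± 0.40 (adjusted p = 0.00539), as did the evening gene *LUX*, at -1.66 ± 0.21 (adjusted p = 0.000191).

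The remaining lists stand against 12% positive and 8.19% negative over all genes tested. Cytosolic ribosomal protein genes gave 2 positive and 5 negative DEGs of 109, autophagy genes 0 and 1 of 29, abscisic acid genes 2 and 2 of 18, nitrate genes 2 and 1 of 13, and salicylic acid genes 0 and 2 of 10. The promoter element TGGGCC, found near many ribosomal and other growth genes, was in 17.2% of all promoters against 10.2% of those of positive and 11.3% of those of negative DEGs. Chlorophyll synthesis genes gave 4 positive and 1 negative of 15, genes of shade growth 4 and 1 of 12, cysteine-rich receptor-like kinases 3 and 4 of 22, and genes of sucrose and trehalose metabolism 3 and 4 of 22. Starch genes gave 4 positive and 1 negative of 19. Genes of oil breakdown, the glyoxylate cycle and gluconeogenesis gave 2 positive and 6 negative of 18, with a median of -0.73. In 6 of the 18, *tmt2-S* lay above the rest, against 16.0% of all genes tested.

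The balance of positive and negative genes depended on scaling. With upper-quartile scaling in place of TMM (trimmed mean of M-values), the median interaction of all genes moved to 0.23, 2867 genes were positive and 1035 negative (73.5% positive against 59.3%), and 3247 of the interaction DEGs were shared. The direction of the sugar-starvation and iron-deficiency lists held under that scaling, with 9 negative of 16 and 14 positive of 18.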

How the data were processed

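Above-ground tissue of 4 groups of 3 samples was sequenced by the authors as polyadenylated RNA, aligned with Bowtie2 to the TAIR10.1 genome and quantified with RSEM, which gave the deposited expected counts and the deposited FPKM per gene. The deposited table also held TPM and group averages, which were not used. Expected counts (1.35% to 2.13% of values per library not whole) were rounded to whole numbers, and 18506 of 22953 genes passed the filter on low counts (filterByExpr over the 4 groups).

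The counts were scaled by TMM and tested with the edgeR 4.0.16 quasi-likelihood F-test (R 4.3.3), with Benjamini-Hochberg adjustment over all genes tested. Every adjusted p in the text is from that fit or, where libraries were left out, from the same model without them. A DEG had a log2FC of at least 1.2 in size and an adjusted p of at most 0.05, after the authors' threshold. The biological coefficient of variation was 0.209. Interactions are given ± SE. FPKM values describe levels and entered no test. A fold against a group with no more than 3 counts in each library was set as a bound on that floor. The labels do not say that replicates came from separate cultures, so p-values measure the spread between these samples only.

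Genes were named by a rule: the 4 largest interactions and the 4 smallest p in each direction among DEGs with a mean FPKM of at least 5 in a group, the 4 largest opposite and the 2 largest same-sign responses in each direction, the 4 largest in each direction with a genotype effect with sucrose only, and the 2 largest in each direction of each function list. The genes of the first 4 sets are all named, and those of the lists in part. Further genes were named after their values were seen, among them other members of the lists, *LOX4*, *MYC2*, *RRTF1*, *MYB15* and the clock genes. The genes, lists and tests were chosen with earlier results of these data known, and the iron lists and promoter motifs after values had been seen.

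Alternatives were DESeq2 1.42.0, limma 3.58.1 voom with sample weights, other scalings and filters, glmTreat, a replicate block and leaving out libraries. Promoter sequence was read with Python 3.11.15 from the RefSeq annotation of TAIR10.1. Scripts were tested on simulated data. Protein sequence was not used.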

Additional observations from a re-analysis of the deposited data

Results flagged for a closer look

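The interaction is itself a difference between 2 genotypes under the same contrast, and 3728 genes passed its test. Within them, 17 genes passed in both genotypes with opposite signs, and 8 of these had a mean FPKM of at least 5 in some group. Positive cases were *AT2G14247* (8.62), *HSFC1* (3.45), *AT5G38700* (3.45) and *AT5G63130* (2.71). Negative cases were *SAUR36* (-4.17), *ERS1* (-1.41), *RS31a* (-1.25) and *RS40* (-1.22). *AT5G38700* had an FPKM of 2.11, 3.65 and 2.74 in WT, 1.22, 0.78 and 0.72 in WT-Suc, 2.29, 2.21 and 1.95 in the *tmt2-S* libraries and 10.08, 6.54 and 5.97 in *tmt2-L-Suc*, so that WT-Suc was below and *tmt2-L-Suc* above all other libraries. *AT5G63130* had an FPKM of 2.63, 2.07 and 2.01 in WT-Suc, below the other 9 libraries, while *tmt2-L-Suc*, at 12.5, 7.34 and 14.6, overlapped WT at 10.14, 5.21 and 4.98. *RS40* stayed an interaction DEG in 6 of the 12 fits without a single library and *RS31a* in 10. All group sizes were 3, too few for a check of single samples by their gap to the rest.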

How the results depend on the processing

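Correlations of same-numbered deviations ran from -0.475 to 0.477. With 3 libraries per group they cannot settle whether replicate numbers pair the samples. The replicate block gave 120 sucrose DEGs in the wild type, 9 opposite responses and 3617 interaction DEGs. Against 3728 interaction DEGs, median-of-ratios scaling gave 3726, DESeq2 3909, voom 4417 and no filter 3836. With an adjusted p alone there were 6410 (3342 positive, 3068 negative), with 9533 for sucrose in *tmt2* and 3790 and 8016 for genotype with and without sucrose. With glmTreat, which tests against the fold limit, there were 1087 (675 and 412), with 0 for sucrose in the wild type, 1990 in *tmt2*, 162 and 1595 for genotype with and without sucrose and 0 opposite responses. Requiring 10 counts in every library gave 2808 for sucrose in *tmt2* and 833 and 2262 for genotype with and without sucrose. For sucrose in the wild type DESeq2 gave 519 and voom 1139, and for opposite responses 110 and 852. Without a single library or a replicate number, the ranges were 1763 to 4160 for the interaction (941 to 2528 positive, 822 to 1666 negative), 0 to 707 for sucrose in the wild type, 3668 to 4740 in *tmt2*, 608 to 1825 and 2785 to 4020 for genotype with and without sucrose, and 0 to 249 for opposite responses. The low interaction count was without replicate 2 of every group, where cell cycle genes fell to 4 positive and aliphatic glucosinolate genes to 1. Of 198 named or examined genes, 68 were no longer called without replicate 2 of every group and 83 with glmTreat. The causes were not tested. No result reversed.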
